A study of Mus musculus with 69 samples.

Results

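The unfolded protein response genes described here are 10 symbols taken by name from the kidney RNASeq counts of NZB/W F1 mice: the chaperones and folding enzymes Hspa5, Hsp90b1, Sdf2l1, Dnajb9, Dnajb11 and Pdia4, and the stress regulators Atf6, Xbp1, Atf4 and Ddit3. They are 10 of the 24538 gene symbols listed in each library, of which 24523 held counts, and the rule that names them uses no measured value. All 10 were found, and each passed the filter on low counts in every comparison, with a lowest count of 195 for Ddit3 and 204 for Sdf2l1 in any mouse. The 65 original libraries came from perfused whole kidneys of female mice: 30 young mice aged 12 weeks, 27 nephritic mice aged 30 to 45 weeks with proteinuria above 300 mg/dl, and 8 mice in remission aged 36 to 50 weeks. Remission had been induced in nephritic mice with a single dose of cyclophosphamide (50 mg/kg) and 6 doses of CTLA4Ig (200 ug) and anti-CD40L (250 ug) over 2 weeks, and kidneys were taken 8 weeks later. Mice were kept in 12 h of light and 12 h of dark and killed at a Zeitgeber time (ZT) of 0, 4, 8, 12, 16 or 20 h, where ZT0 is lights on and ZT12 lights off. Young mice numbered 7, 4, 4, 7, 4 and 4 at these times, nephritic mice 7, 4, 4, 6, 3 and 3, and remission mice 4 at ZT0 and 4 at ZT12. Every mouse was killed once, so a daily course is read across different animals, and age and nephritis cannot be told apart because all young mice were 12 weeks old.

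Secretory and membrane proteins fold in the endoplasmic reticulum (ER), where the Hsp70 chaperone BiP, encoded by Hspa5, binds them in an ATP cycle driven by J-domain partners such as Dnajb9 and Dnajb11. When unfolded clients build up, BiP leaves the membrane sensors ATF6, IRE1 and PERK. ATF6 is freed as a transcription factor by proteolysis, IRE1 splices Xbp1 mRNA into the form that encodes an active factor, and PERK phosphorylates eIF2alpha, which favours translation of ATF4 and through it the induction of Ddit3 (CHOP). ATF6 and spliced XBP1 act on chaperone promoters through ER stress response elements. In kidney disease this response is known from proximal tubule cells loaded with filtered protein and from podocytes, and plasma cells, which can enter an inflamed kidney, need Xbp1 to secrete antibody. Gene-level counts do not show Xbp1 splicing, ATF6 cleavage or ATF4 protein.

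The ER stress response element (ERSE), which reads CCAAT, then any 9 bases, then CCACG, was searched on both strands of RefSeq promoter windows of GRCm38.p6, each holding 250 bases before and 50 after a transcription start. It was found in 0.119% of 32851 windows. Of the 10 genes, 9 have a window in that table and 2 of these hold the element, Hspa5 and Hsp90b1. The related ERSE-II, which reads ATTGG, any base, then CCACG, was found in 0.0365% of windows and in the window of Dnajb11. The stretches that hold these matches are shown 5′ to 3′ on the gene's strand, with the fixed letters of each element in capitals. The first 2 are the 250 bases before the start and the third is 29 bases around the match.
Hspa5, chr2:34771840-34772089, plus strand: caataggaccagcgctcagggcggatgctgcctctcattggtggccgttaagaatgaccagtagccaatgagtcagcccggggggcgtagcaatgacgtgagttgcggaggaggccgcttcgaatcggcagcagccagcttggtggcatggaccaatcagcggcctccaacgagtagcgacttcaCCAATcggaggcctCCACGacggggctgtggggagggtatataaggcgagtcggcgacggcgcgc
Hsp90b1, chr10:86705445-86705694, minus strand: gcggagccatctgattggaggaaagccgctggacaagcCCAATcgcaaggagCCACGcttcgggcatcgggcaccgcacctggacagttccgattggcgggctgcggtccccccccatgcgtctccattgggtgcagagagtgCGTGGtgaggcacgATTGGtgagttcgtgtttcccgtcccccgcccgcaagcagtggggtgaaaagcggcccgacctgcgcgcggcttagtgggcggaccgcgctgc
Dnajb11, chr16:22857843-22857871, plus strand: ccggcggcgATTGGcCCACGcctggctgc
The element of Hspa5 begins 65 bases before the start. Hsp90b1 holds 2, beginning 212 bases before the start on the gene's strand and 107 bases before it on the opposite strand. The ERSE-II of Dnajb11 begins at base 8 of the transcript. The UPRE core TGACGTGG (0.676% of windows) and the ATF4 site core TTGCATCA (0.895%) were in none of the 9 windows. The E-box CACGTG, the sequence bound by clock factors, was in 7.15% of windows and in that of Dnajb9 alone among the 9. A match describes these letters, and a window without one says nothing of the factor.

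Libraries ranged from 25257530 to 48075977 counts in young and nephritic mice and from 13311278 to 21849912 in remission mice, so that even the lowest member count rested on 195 reads. All 8 kidney epithelium markers were present in every group, with a median summed level of 14900 CPM (counts scaled to the effective library size) in young, 12300 in nephritic and 15700 in remission mice. RNASeq was done in sets, read from the mouse names: 6 young and 5 nephritic mice killed at ZT0 or ZT12 make up Set 1, the rest make up Set 2, and a separate run holds the remission mice and 4 repeat libraries of young and nephritic mice. Of those repeats 3 were nearest to their own original and 1, of nephritic ZT12 mouse RX11RU, was nearest to ZT4 mouse RX11LU. Its original library held 1440 CPM of Hspa5 and its repeat 426 CPM, whereas repeat and original of the other 3 mice differed by -0.12 to 0.08 on the log2 scale for this gene. Other members moved more between runs. The repeats of these 3 mice held less Dnajb9, at -0.26, -0.31 and -0.51 on the log2 scale, and more Sdf2l1, at 0.42 and 0.54 in the 2 young mice and 0.09 in the nephritic mouse. The plasma cell marker sum described last was 805 CPM in the original library of RX11RU and 279 CPM in its repeat. Remission mouse s9, labelled ZT12, held 27.7 CPM of the clock gene Arntl (by library total), where the 4 remission mice of ZT0 held 22.5 to 29.9 and the other 3 of ZT12 3.23 to 4.95. Values without RX11RU or s9 are given beside the results in which they changed a call.

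In young kidneys Hspa5, Hsp90b1 and Sdf2l1 were lowest at ZT8, late in the light phase, and highest at ZT20, late in the dark phase, once means were adjusted for set. Hspa5 (chromosome 2, 34772090 to 34776529 of GRCm38) was 309, 320, 343 and 369 CPM in the 4 young mice at ZT8 and 630, 779, 818 and 860 CPM in the 4 mice at ZT20. Every ZT20 mouse lay above every ZT8 mouse. The means were 336 ± 26.6 (SD, n = 4) and 772 ± 99.8 (SD, n = 4) CPM, with 474 ± 39.6 (SD, n = 7) CPM between them at ZT12. Hspa5 varied over the 6 time points (edgeR quasi-likelihood test with the set as covariate, adjusted p = 0.000222), and its highest time point exceeded its lowest by 2.29-fold after adjustment for set.

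Of the 10 genes, 7 varied over the day in young mice, where 39.8% of all 16521 genes tested passed. Hsp90b1, the ER paralogue of cytosolic Hsp90 known as GRP94 (chromosome 10, 86690841 to 86705444), averaged 419 ± 50.8 (SD, n = 4) CPM at ZT8 and 637 ± 55.1 (SD, n = 4) CPM at ZT20 (adjusted p = 8.7e-05). At ZT4 it averaged 636 ± 71.3 (SD, n = 4) CPM, and before adjustment for set its highest mean was 689 ± 216 (SD, n = 7) CPM at ZT0. Sdf2l1, a small ER protein that works with BiP and its J-domain partners (chromosome 16, 17130138 to 17132383), was 8.43, 8.51, 9.71 and 10.9 CPM in the ZT8 mice and 13.6, 25.6, 29.3 and 29.9 CPM in the ZT20 mice (adjusted p = 0.000139). Its highest time point exceeded its lowest by 2.51-fold after adjustment for set, the widest daily range of the 10. Before adjustment its mean was highest at ZT0, at 25.6 ± 12.2 (SD, n = 7) CPM, against 24.6 ± 7.59 (SD, n = 4) CPM at ZT20. Dnajb11, a J-domain partner of BiP (chromosome 16, 22857845 to 22879634), averaged 125 ± 18.6 (SD, n = 4) CPM at ZT4, its highest time, 88.7 ± 5.11 (SD, n = 4) CPM at ZT8 and 93.5 ± 4.5 (SD, n = 7) CPM at ZT12 (adjusted p = 0.00116). ZT12 was its lowest time only once means were adjusted for set. Pdia4, a disulfide isomerase (chromosome 6, 47796141 to 47813512), passed at an adjusted p of 0.0146 and Xbp1 (chromosome 11, 5520641 to 5525993) at 0.00713, both with their highest set-adjusted mean at ZT20.

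Dnajb9, the J-domain partner that returns BiP to IRE1 (chromosome 12, 44205897 to 44210068), passed too (adjusted p = 0.00977), with its lowest set-adjusted mean at ZT0. There the 4 young Set 2 mice held 37.2, 37.3, 39.9 and 40.7 CPM and the 3 Set 1 mice 48.3, 65.3 and 103 CPM. The mean of all 7 was 53.1 ± 24.2 (SD) CPM, against 55.4 ± 4.26 (SD, n = 4) CPM at ZT8, so the low point at ZT0 was seen in Set 2 and not in the mean of both sets. The 3 genes that did not pass in young mice were Atf6 (chromosome 1, 170704457 to 170868585), Atf4 (chromosome 15, 80255184 to 80257545) and Ddit3 (chromosome 10, 127290793 to 127296291), with adjusted p of 0.19, 0.223 and 0.895. Ddit3, which encodes CHOP, averaged between 18.3 and 20.5 CPM at all 6 times. Without the set covariate 4 of the 10 genes passed, and Dnajb9, Pdia4 and Xbp1 did not (adjusted p of 0.297, 0.0632 and 0.0914). Over all genes 6474 passed under that setting.

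In nephritic kidneys Hspa5 stood high at both changes of light and low between them. It was 321, 346, 392 and 403 CPM at ZT8. At ZT12 it ranged from 680 to 1440 CPM with a median of 787 (n = 6), and at ZT20 the 3 mice held 411, 452 and 486 CPM. No nephritic mouse at ZT8 or ZT20 reached the lowest mouse at ZT12. At ZT0 the 7 mice ranged from 453 to 1410 CPM around a median of 752, so that some lay as low as the ZT20 mice. The means were 366 ± 38.5 (SD, n = 4) CPM at ZT8, 894 ± 280 (SD, n = 6) CPM at ZT12 and 449 ± 37.6 (SD, n = 3) CPM at ZT20.

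**Figure D1:**
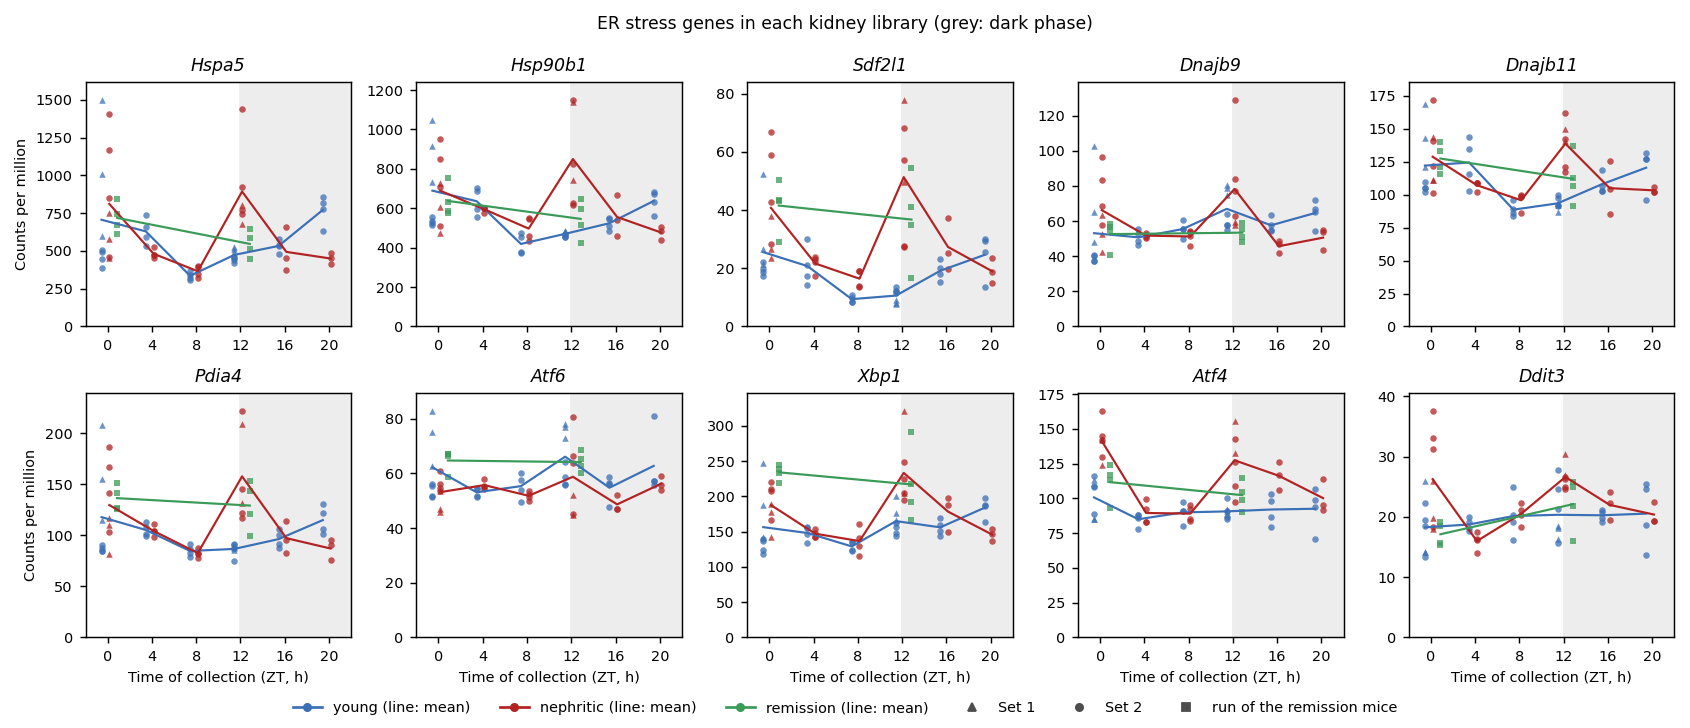
CPM of each gene (vertical axis, from 0) against the time of collection in h (horizontal axis), with 1 point per kidney, lines through the group means, and marker shapes for the sequencing set; grey marks the dark phase. Nephritic means (red) of Hspa5, Hsp90b1, Sdf2l1 and Pdia4 stand at ZT12 above all young mice of that time (blue), while young Hspa5 climbs from a mean of 336 at ZT8 to 772 at ZT20.

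Over the 6 time points 9 of the 10 genes varied in nephritic mice, where 21.6% of 16872 genes passed, and Atf6 did not (adjusted p = 0.172). Hspa5 had an adjusted p of 0.00189, Dnajb9 0.00212, Atf4 0.00237 and Xbp1 0.00356. For 8 of the 9 the highest set-adjusted mean fell at ZT12, and for Atf4 at ZT0. Atf4 and Ddit3 passed here and not in young mice, and whether their courses differ is a separate test given next. With the 6 time points replaced by a cosine and a sine of 24 h period, 0 of the 10 genes and 362 of all genes passed in nephritic mice. Without RX11RU 7 of the 10 passed, and Hsp90b1 (adjusted p = 0.0956) and Dnajb11 (0.0863) did not, while leaving out ZT8 mouse RX7LU or RX12RL also left 7.

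The daily course differed between nephritic and young mice for 7 of the 10 genes, where 6.27% of 17521 genes passed the test of the group by time terms. The 7 were Sdf2l1 (adjusted p = 0.000754), Hsp90b1 (0.00793), Dnajb11 (0.0112), Pdia4 (0.0177), Hspa5 (0.0252), Xbp1 (0.0273) and Atf4 (0.0372). Ddit3 (0.138), Dnajb9 (0.249) and Atf6 (0.832) did not pass. In Set 2 alone, where 1715 of all genes passed, 7 of the 10 passed as well, with Dnajb9 (adjusted p = 0.00012) in place of Atf4 (0.153). The count was 7 without RX11RU, 4 without ZT12 mouse HIL5RU and 4 without ZT20 mouse RX8LU. With the repeat libraries in place of the originals the count was 3, where 796 of all genes passed. With a cosine and sine it was 0, where 121 of all genes passed, against 1099 in the main test.

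At lights off most of these genes differed in size between the groups. At ZT12 8 of the 10 genes were higher in nephritic mice, where 25.8% of genes were higher and 24.2% lower. For 5 of the 10, Hspa5, Hsp90b1, Sdf2l1, Dnajb11 and Pdia4, every nephritic ZT12 mouse lay above every young ZT12 mouse, as it did for 10.8% of all genes tested. In whole kidney RNA, fewer cells of a type and less RNA per cell cannot be told apart.

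Sdf2l1 changed most. It held 7.73 to 13.4 CPM with a median of 11.4 in the 7 young ZT12 mice, and 27.4 to 77.9 CPM with a median of 53.4 in the 6 nephritic mice. The groups did not overlap, and the log2 change was 2.27 (SE 0.26, adjusted p = 6.6e-10), or 4.83-fold. Hspa5 held 422 to 529 CPM in young mice (median 461) against 680 to 1440 CPM in nephritic mice, a log2 change of 0.93 (SE 0.22, adjusted p = 0.000594). This is the BiP gene itself, and its change was 1.91-fold. Hsp90b1 held 454 to 487 CPM in young and 617 to 1150 CPM in nephritic mice, a log2 change of 0.86 (SE 0.14, adjusted p = 3.6e-06). Pdia4 (0.87, SE 0.16, adjusted p = 1.8e-05) and Dnajb11 (0.57, SE 0.10, adjusted p = 1.7e-05) were higher too. Young mice lay close together for Hsp90b1 at this time, at 470 ± 12.9 (SD, n = 7) CPM, while nephritic mice spread over 851 ± 243 (SD, n = 6) CPM.

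Xbp1, Atf4 and Ddit3 were also higher at ZT12, with overlapping groups. Xbp1 held 144 to 201 CPM in young mice and 195 to 321 CPM in nephritic mice, a log2 change of 0.51 (SE 0.11, adjusted p = 0.000145). Atf4, the factor translated when eIF2alpha is phosphorylated, held 85.3 to 100 CPM in young and 97.8 to 156 CPM in nephritic mice, a log2 change of 0.48 (SE 0.09, adjusted p = 2.8e-05). Ddit3 changed by 0.38 (SE 0.15, adjusted p = 0.0314), which did not pass in Set 2 alone (0.19, adjusted p = 0.431). Of Ddit3 the young mice held 15.7 to 27.8 CPM and the nephritic mice 24.6 to 30.4 CPM. Dnajb9 (0.24, adjusted p = 0.255) and Atf6 (-0.16, adjusted p = 0.214) did not pass. In Set 2 alone the change of Dnajb9 was 0.57 (adjusted p = 0.00111).

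Without RX11RU, whose repeat differed from it, the same 8 genes passed at ZT12. Hspa5 was then higher by 0.74 (adjusted p = 0.00475), Sdf2l1 by 2.17 (adjusted p = 5.5e-09) and Hsp90b1 by 0.74 (adjusted p = 3.8e-05). Atf6 was then lower, with a log2 change of -0.27 (adjusted p = 0.0264). Over all 57 mice left out in turn, between 7 and 9 of the 10 genes passed at ZT12.

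At lights on fewer genes differed, and the count depended on the set. At ZT0 4 of the 10 genes were higher in nephritic mice, where 20.1% of genes were higher and 19.4% lower. They were Atf4 (0.47, SE 0.09, adjusted p = 4.4e-05), Ddit3 (0.50, SE 0.14, adjusted p = 0.0053), Sdf2l1 (0.66, SE 0.24, adjusted p = 0.026) and Xbp1 (0.28, SE 0.11, adjusted p = 0.0305). Atf4 held 84.9 to 116 CPM in the 7 young mice and 124 to 163 CPM in the 7 nephritic mice. Hspa5 did not pass (0.23, SE 0.22, adjusted p = 0.412), and its young mice stood apart by set. The 3 young Set 1 mice held 600, 1010 and 1500 CPM and the 4 young Set 2 mice 386, 446, 493 and 509 CPM. Every Set 1 mouse was above every Set 2 mouse, whereas among nephritic ZT0 mice Set 1 held 453, 581 and 752 CPM and Set 2 held 461, 853, 1170 and 1410 CPM.

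Within Set 2 alone, with 4 young and 4 nephritic mice at ZT0, 9 of the 10 genes were higher, where 18.1% of genes were. The change of Hspa5 was 1.09 (adjusted p = 0.000162), that of Dnajb9 0.98 (3.3e-06), that of Pdia4 0.79 (9.8e-05) and that of Hsp90b1 0.51 (0.00917), all from edgeR. Atf6 was the exception at 0.07 (adjusted p = 0.61). Set 1, with 3 young and 3 nephritic mice at ZT0, was not fitted by itself. Left out in turn, young Set 1 mouse CR6RL, the 1500 CPM mouse, moved the count at ZT0 from 4 to 7 genes, while leaving out ZT0RU, ZT00 or RX11LL lowered it to 2.

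At the other times no member passed by edgeR. At ZT4 0 of the 10 genes differed (30.3% of all genes did, in either direction), at ZT8 0 (3.66%), at ZT16 0 (17.7%) and at ZT20 0 (5.48%), with the number of members at an unadjusted p under 0.05 being 0, 1, 1 and 3. Over all genes 41.6%, 16.2%, 32.1% and 18.1% stood under that unadjusted p. At ZT20, where young Hspa5 was highest, 9 of the 10 changes were negative. Hspa5 held 630 to 860 CPM in the 4 young mice and 411 to 486 CPM in the 3 nephritic mice, a log2 change of -0.80 (SE 0.31, adjusted p = 0.134). The test was not passed over all genes, and the share of all genes whose mice did not overlap at this time was not counted. In Set 2 alone 2 genes were lower there, where 1.60% of genes were lower: Hspa5 (-0.76, adjusted p = 0.022) and Xbp1 (-0.32, adjusted p = 0.0392). All mice of ZT4, ZT8, ZT16 and ZT20 belong to Set 2. By DESeq2 the counts at these 4 times were 0, 0, 1 and 0, the 1 being Atf4 at ZT16 (0.36, adjusted p = 0.0328).

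**Figure D2:**
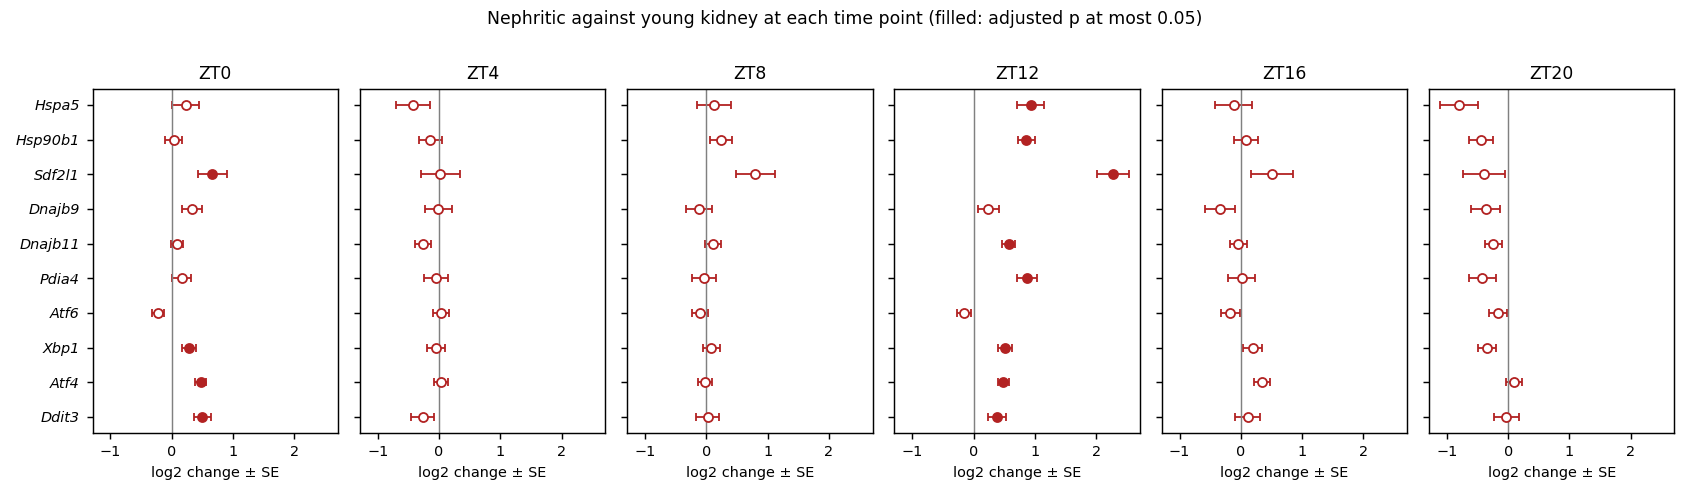
The log2 change of nephritic against young kidney (horizontal axis) for each gene (vertical axis) at 6 time points; bars show the standard error and filled points an adjusted p of at most 0.05. Filled points stand at ZT12 for 8 genes, from 0.38 for Ddit3 to 2.27 for Sdf2l1, and at ZT0 for 4 genes; at ZT20 9 of the 10 open points lie below 0.

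With 1 group term for all times, called over the day here and below, differences in level were smaller than at ZT12. The median log2 change was 0.17 over the 10 genes and -0.03 over all genes tested. This term is not an even average of the 6 times. ZT0 and ZT12, where members were higher, hold 14 of the 30 young and 13 of the 27 nephritic mice and so weigh most. Of the 10 genes, 4 were higher in nephritic mice, where 28.1% of genes were higher, and 1 was lower, where 33.9% were lower. Sdf2l1 held 7.73 to 52.5 CPM (median 17.5) in 30 young mice and 13.7 to 77.9 CPM (median 25.1) in 27 nephritic mice, a log2 change of 0.82 (SE 0.17, adjusted p = 5.1e-05). Atf4 held 70.5 to 116 CPM (median 90.7) in young and 83.1 to 163 CPM (median 114) in nephritic mice, a log2 change of 0.28 (SE 0.05, adjusted p = 4.2e-06). The ranges of both genes overlap between the groups. Ddit3 (0.19, SE 0.08, adjusted p = 0.0339) and Xbp1 (0.17, SE 0.06, adjusted p = 0.0151) were the other 2 that were higher. Atf6, the sensor that is cut in the Golgi, was lower, with a log2 change of -0.14 (SE 0.05, adjusted p = 0.0102).

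Apart from Sdf2l1, none of the chaperones and folding enzymes passed in level by edgeR. Hspa5 held a median of 522 CPM in young and 486 CPM in nephritic mice. Its change adjusted for time point and set was 0.11 on the log2 scale (SE 0.13, adjusted p = 0.465), opposite in sign to that of the medians. For Dnajb9 it was 0.03 (SE 0.09, adjusted p = 0.798). Hsp90b1 (0.18, adjusted p = 0.0777), Pdia4 (0.18, adjusted p = 0.0949) and Dnajb11 (0.10, adjusted p = 0.182) did not pass either. In Set 2 alone the lower level of Atf6 was not seen (-0.01, adjusted p = 0.916), Ddit3 did not pass (0.15, adjusted p = 0.105), and Hsp90b1 (0.22, adjusted p = 0.0221) and Pdia4 (0.23, adjusted p = 0.0241) did.

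In remission the stress factors Ddit3 and Atf4 were lower than in nephritic mice. The 8 remission mice were set against the 13 nephritic mice of ZT0 and ZT12. Ddit3 held 15.3, 15.6, 18.5 and 19.1 CPM in remission mice at ZT0 and 16, 21.8, 24.9 and 25.8 CPM at ZT12, against 18 to 37.6 CPM in nephritic ZT0 mice and 24.6 to 30.4 CPM in nephritic ZT12 mice. Its log2 change was -0.42 (SE 0.13, adjusted p = 0.0204), with partly overlapping groups. The log2 change of Atf4 was -0.30 (SE 0.08, adjusted p = 0.0091) and that of Dnajb9 -0.41 (SE 0.15, adjusted p = 0.0375). Thus 3 of the 10 genes were lower, where 19% of genes were lower. Atf6 was higher by 0.24 (SE 0.09, adjusted p = 0.0407), where 16.8% of genes were higher. The folding genes Hspa5 (-0.40, adjusted p = 0.125), Hsp90b1 (-0.34, adjusted p = 0.101) and Sdf2l1 (-0.19, adjusted p = 0.574) did not pass. Leaving out ZT12 remission mouse s12 left 2 of these 4 calls. Atf6 passed in 3 and Dnajb9 in 4 of the 8 fits that each left out a remission mouse, while Atf4 and Ddit3 passed in all 8. With set as a covariate for the nephritic mice 4 of the 10 genes were lower and 0 higher. Without the filter on low counts 3 were lower and 0 higher. With the sequencing run as a covariate 0 of the 10 passed, where 1701 of all genes did.

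Against the 14 young mice of ZT0 and ZT12, the same remission mice held more Sdf2l1 and Xbp1. Sdf2l1 held 29.1, 43.3, 43.5 and 50.4 CPM in remission at ZT0, against 17.5 to 52.5 CPM in young mice. At ZT12 it held 16.6, 34.9, 41.1 and 54.4 CPM, all above the range of 7.73 to 13.4 CPM in the original libraries of young mice. The repeat of young mouse ZT12RU, in the run of the remission mice, held 16.7 CPM where its original held 11.4. That repeat lay above the lowest remission mouse. The log2 change was 1.28 (SE 0.23, adjusted p = 6.4e-05). Xbp1 was higher by 0.51 (SE 0.12, adjusted p = 0.000933), Pdia4 by 0.41 (SE 0.14, adjusted p = 0.0173) and Atf4 by 0.17 (SE 0.07, adjusted p = 0.0306). These were 4 of 10, where 26.2% of genes were higher, and 0 of 10 were lower, where 26.8% were. Both comparisons use the same remission mice, and group and sequencing run cannot be told apart in either without the repeats. When run was added as a covariate through the 4 repeated mice, 0 of the 10 genes passed against nephritic mice and 2, Sdf2l1 and Xbp1, against young mice, and without the RX11RU pair 0 passed in both. Calls over all genes fell too, from 5850 to 1701 against nephritic mice and from 8468 to 3026 against young mice. Without the pair they were 1197 and 3020. The shifts between runs given above, in repeats of the same mice, are for Dnajb9 near its change against nephritic mice (-0.41) and for Sdf2l1 in the direction of its change against young mice. With the run covariate the change of Dnajb9 against nephritic mice was 0.13 (adjusted p = 0.717), and that of Sdf2l1 against young mice without the pair was 1.01 (adjusted p = 0.0584). Without s9 Dnajb9 did not pass against nephritic mice (-0.38, adjusted p = 0.0717) and Atf4 did not pass against young mice (0.15, adjusted p = 0.0791).

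**Figure D3:**
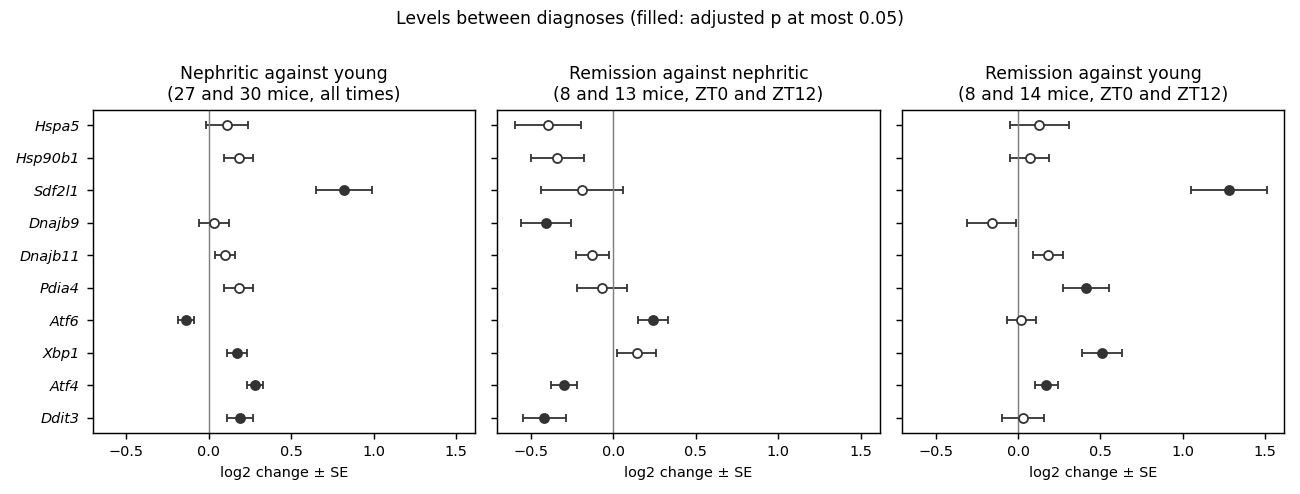
The log2 change of each gene (horizontal axis, with standard errors) between diagnoses, filled where the adjusted p is at most 0.05. Sdf2l1 stands at 0.82 in nephritic and 1.28 in remission mice against young mice, and Atf4 and Ddit3 stand at -0.30 and -0.42 in remission against nephritic mice.

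Within the remission mice 0 of the 10 genes differed between ZT12 and ZT0 by edgeR, as did 0 of all 14451 genes tested. At an unadjusted p under 0.05 stood 1449 genes, Hspa5 and Ddit3 among them. Hspa5 held 613, 674, 743 and 845 CPM at ZT0 and 444, 515, 584 and 643 CPM at ZT12, a log2 change of -0.39 (SE 0.14, adjusted p = 0.487). The log2 change of Ddit3 was 0.37 (SE 0.16, adjusted p = 0.496). The mice at the 2 times overlap for both genes. DESeq2 passed 0 of the 10 genes here and 24 of all genes, and without s9 edgeR passed 0 of the 10 and 202 of all genes.

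The rest of the pathway was read through 118 further genes in 10 lists. By the group term for all times 35 (29.7%) were higher and 39 (33.1%) lower in nephritic mice. These shares are near the 28.1% and 33.9% of all genes tested, and the median log2 change was 0.01. At ZT12 50 (42.4%) were higher and 17 (14.4%) lower, where 25.8% and 24.2% of all genes were, with a median log2 change of 0.13 where the median over all genes was 0.01. Without RX11RU the counts at ZT12 were 49 higher and 24 lower. Of 24 ATF4 targets 13 (54.2%) were higher and 5 (20.8%) lower over the day, and 17 (70.8%) were higher and 3 (12.5%) lower at ZT12, against the same shares of all genes. Stc2, a secreted glycoprotein, changed by 1.19 (SE 0.11, adjusted p = 5.9e-14) and Mthfd2, a mitochondrial folate enzyme, by 1.24 (SE 0.12, adjusted p = 1.2e-12). Vldlr, a lipoprotein receptor, was lower, with a log2 change of -0.57 (SE 0.06, adjusted p = 7.1e-12). All 7 ER stress death genes were higher over the day, where 28.1% of all genes were, with a median log2 change of 0.76. Among them were Tnfrsf10b, a death receptor (0.84, SE 0.10, adjusted p = 2.9e-10), and Bbc3, which encodes PUMA (1.04, SE 0.16, adjusted p = 1.5e-07). Trib3 and Chac1 stand both in this list and among the ATF4 targets, so the counts of these lists are not separate. In remission against nephritic mice 7 of 23 ATF4 targets tested were lower and 0 higher, and 3 of the 7 death genes were lower, where 19% of all genes were lower and 16.8% higher. At ZT12 all 7 death genes were higher, and 5 without RX11RU.

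The counts that follow are over the day and stand against 28.1% higher and 33.9% lower among all genes tested. Among the transcription factors beside the members 4 of 5 were higher, among them Atf3 (1.69, SE 0.25, adjusted p = 9.3e-08) and Cebpb (0.68, SE 0.09, adjusted p = 2.2e-08). Among 10 stress sensors and their proteases 2 (20%) were higher and 3 (30.0%) lower, both below those shares. Eif2ak3, which encodes PERK, was higher by 0.19 (SE 0.06, adjusted p = 0.00835), and Mbtps1, the Golgi protease that cuts ATF6, and Creb3l2, another membrane-bound factor, were lower, at -0.17 and -0.35 on the log2 scale. Of 7 eIF2alpha kinases and phosphatase subunits 2 (28.6%) were higher and 3 (42.9%) lower, with Eif2ak2, the interferon-induced kinase PKR, at 0.45 (SE 0.05, adjusted p = 4.8e-11) and Eif2ak1, the heme-regulated kinase, at -0.23. Eif2ak3 is counted in this list as well.

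In 5 further lists, which hold the folding, degradation and import machinery of the ER, the share of lower genes ran from 25.0% to 55.6% and that of higher genes from 9.52% to 23.1%, against the same shares of all genes. The lower share was 52.4% for ER-associated degradation and 55.6% for lectin chaperones, 38.5% for disulfide isomerases, and under that of all genes for the BiP and Hsp90 cycle (25.0%) and the translocon (30.8%). Of 12 genes of the BiP and Hsp90 cycle 2 were higher and 3 lower: Creld2, an ER protein induced by stress, was higher by 0.46 and Sil1, a nucleotide exchange factor of BiP, and Dnajc3, a J-domain protein, were lower, at -0.19 and -0.30. At ZT12 3 genes of this cycle (25.0%) were higher and 1 (8.33%) lower, where 25.8% and 24.2% of all genes were. Creld2 was higher there by 1.34 (SE 0.21, adjusted p = 1.4e-06). Of 13 disulfide isomerases and oxidases 3 were higher and 5 lower over the day, with Pdia6 at 0.22 and P4hb and Erp44 at -0.19 and -0.21. At ZT12 5 (38.5%) were higher and 1 (7.69%) lower, against those ZT12 shares of all genes, with Pdia6 at 0.80 (SE 0.10, adjusted p = 1.6e-08). Pdia6 and P4hb both encode disulfide isomerases of the ER and changed in opposite directions over the day. Of 9 lectin chaperones and glycan trimming genes 1 was higher, Calr (calreticulin, 0.18), and 5 were lower, among them Lman1 (-0.27) and Mcfd2 (-0.38), the pair that carries cargo out of the ER. Of 21 genes of ER-associated degradation 2 were higher and 11 lower, with Derl3, also a plasma cell marker here, at 1.77. Of 13 translocon and signal peptidase genes 2 were higher and 4 lower, with Sec11c at 0.21 and Sec62 at -0.45.

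Most of the 10 genes co-varied between mice after group, time point, their interaction and set were removed from log2 CPM. Here and below set was removed as 1 shift shared by both groups. At ZT0 mean Hspa5 was 1040 CPM in Set 1 and 459 in Set 2 in young mice, but 595 and 976 in nephritic mice. Set differences within a group thus remain in these values, and their part in r was not tested. Over 57 mice, which share libraries and scaling, Hspa5 had a Pearson r of 0.89 with Hsp90b1, 0.89 with Pdia4, 0.85 with Dnajb11, 0.81 with Dnajb9, 0.79 with Xbp1 and 0.73 with Sdf2l1. The 3 genes whose promoter stretches are printed above had r of 0.85 or more with each other. Pdia4, whose window holds neither element, had 0.93 with Hsp90b1 and 0.78 with Dnajb11. Sdf2l1, whose window holds neither as well, had 0.87 with Hsp90b1 and 0.86 with Dnajb11. A link between element and co-variation was not tested. Atf4 stood apart, with r of 0.07 to Hspa5, 0.36 to Ddit3 and -0.41 to Atf6. Within the 27 nephritic mice the r of Hspa5 with Hsp90b1 was 0.90 and with Atf4 0.12, and within the 30 young mice 0.91 and 0.02. Atf6 had its highest r, 0.78, with Dnajb9. Without RX11RU no r over both groups moved by more than 0.11, and that of Hspa5 was 0.88 with Hsp90b1 and 0.16 with Atf4.

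**Figure D4:**
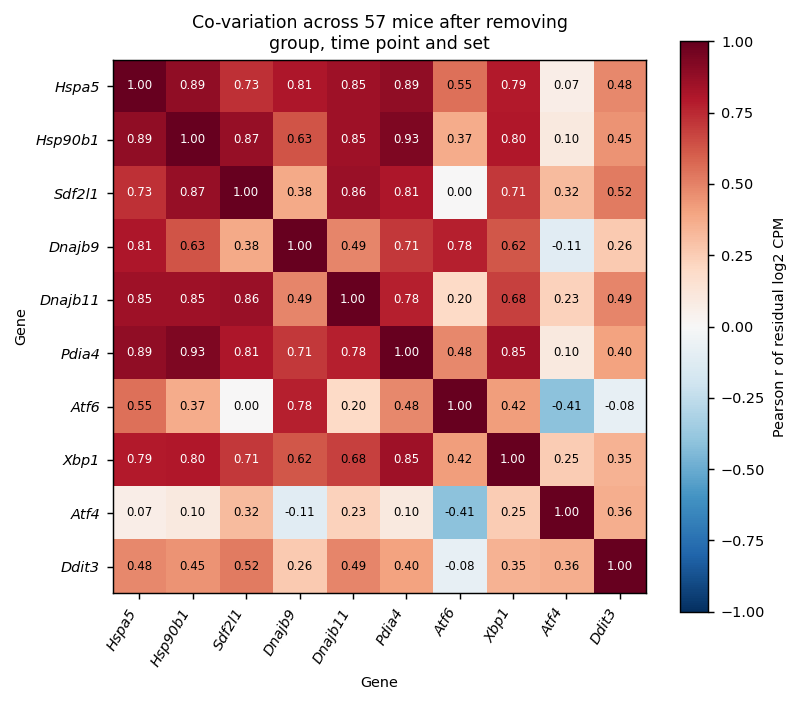
Pearson r of residual log2 CPM between each pair of the 10 genes (both axes) over 57 young and nephritic mice, from -1 in blue to 1 in red. The folding genes and Xbp1 form a block with Hspa5 at 0.73 to 0.89, while the row of Atf4 runs from -0.41 to 0.36.

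Outside the 10, with group, time point and set removed, the genes most like Hspa5 were Hyou1 (r = 0.97), an ER chaperone of the Hsp110 kind, Creld2 (0.92) and Syvn1 (0.91), the ubiquitin ligase of ER-associated degradation. Those most like Atf4 were 2010111I01Rik (0.71), Zcchc7 (0.70) and Pmm2 (0.70). Those most like Ddit3 were Hspa8 (0.72), Stip1 (0.70) and Ahsa1 (0.70), which belong to the cytosolic Hsp70 and Hsp90 system. All are over 57 mice and are descriptions. Without RX11RU Manf (0.91) stood in place of Syvn1 (0.90) for Hspa5, and the 3 genes for Atf4 and for Ddit3 were the same.

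Markers of other cells differed between the groups. The summed level of 10 plasma cell markers had a median of 208 CPM (169 to 246) in young, 394 CPM (199 to 2990) in nephritic and 618 CPM (306 to 1220) in remission mice, and 8 of the 10 were higher in nephritic mice. By time its nephritic median was 348, 469, 252, 617, 694 and 422 CPM from ZT0 to ZT20. This median was highest at ZT16, where the sum ranged from 619 to 736 CPM in 3 mice. At ZT12 the sum ranged from 386 to 2990 CPM in 6 mice. Jchain held a median of 4.32 CPM in young and 172 CPM in nephritic mice, and no marker was at 0 in all mice of a group. Of 7 tubular injury markers 7 were higher, with sums of 1620 to 2940 CPM in young, 1720 to 33700 CPM in nephritic and 1940 to 4960 CPM in remission mice. All 6 B cell and all 6 macrophage markers were higher too, with median sums of 2.99 and 39.2 CPM and of 165 and 527 CPM in young and nephritic mice. Adrenal cortex sums ranged from 4.29 to 1760 CPM in young, 5.61 to 1160 CPM in nephritic and 4.01 to 9.31 CPM in remission mice. The part of these cells in the results was not tested.

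Across the 27 nephritic mice each of the 10 genes was correlated with the plasma cell and tubular injury sums, 20 relations in all. Xbp1 was higher where the plasma cell sum was higher, with a Pearson r of 0.60 (permutation p = 0.00144, adjusted p = 0.0288) and a Spearman rho of 0.39 (permutation p = 0.0468, adjusted p = 0.25). Sdf2l1 had an r of 0.51 (permutation p = 0.00497, adjusted p = 0.0497) and a rho of 0.43 (permutation p = 0.025, adjusted p = 0.25). Both relations rest on few mice and neither passed by rank. Without the 2 mice farthest from the median sum r was 0.32 for Xbp1 and 0.29 for Sdf2l1, and within Set 2 (22 mice) 0.35 and 0.29. With Derl3 and Txndc5, which also stand in the pathway lists, left out of the sum, r was 0.53 for Xbp1 (adjusted p = 0.0866 by permutation) and 0.46 for Sdf2l1 (0.166). Without RX11RU 0 of the 20 relations passed, with r of 0.57 for Xbp1 (adjusted p = 0.0816 by permutation) and 0.48 for Sdf2l1 (0.114). HIL5RU, with a plasma cell sum of 2990 CPM, had the highest Xbp1 (321 CPM) and Sdf2l1 (77.9 CPM) of all mice. Hspa5 had an r of 0.25 and a rho of 0.28 with the plasma cell sum, and 0.05 and 0.28 with the injury sum, with adjusted p for r of 0.498 and 0.91 by permutation. With the tubular injury sum none of the 10 passed, with r from -0.20 for Ddit3 to 0.31 for Xbp1. Without HIL5RU at ZT12, Hspa5 was higher by 0.98 (adjusted p = 0.000997) and Sdf2l1 by 2.09 (adjusted p = 1.1e-08).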

How the data were processed

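Whole kidneys of NZB/W mice were profiled by poly(A) RNASeq. The authors deposited raw read counts per gene symbol, made by alignment and counting of unique reads over exons and splice junctions. The study's methods name the Burrows-Wheeler aligner and the submitters' processing notes name HISAT and the mm10 build, so the aligner is not certain. Strand use in counting is not given in the sources used here. Of the symbols, 15 with empty cells were left out. No 2 libraries held identical counts.

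Members and gene lists were chosen with earlier results of these data known. Counts were normalised by TMM and tested with edgeR 4.0.16 (R 4.3.3) quasi-likelihood F tests, with genes of at least 100 counts over the libraries of a fit, Benjamini-Hochberg adjustment over all genes and a threshold of 0.05. Nephritic and young mice were fitted with time point and set as covariates, changes at each time point came from 1 fit of all group and time means with set, and remission comparisons had time point as covariate. Comparisons between nephritic and young mice share mice, as do both remission comparisons. CPM values use effective library sizes, and log2 CPM a prior count of 2. Correlations used 100000 two-sided permutations. Mice are separate animals, but where nothing says that their libraries were made apart, p-values measure the spread between these libraries. Alternatives were RLE scaling, DESeq2 1.42.0, limma 3.58.1, no filter, Set 2 alone, no set covariate, repeat libraries, a cosine, a run covariate and leaving out each mouse. Remission against nephritic mice was also fitted with set as a covariate for the nephritic mice. From each pathway list the text names the 2 genes with the smallest p for level and the 1 with the smallest p in the opposite direction, of which 1 gene is not reported here. Like genes are the 3 with the highest r. Scripts were tested on simulated data. Depth ranged from 13311278 to 48075977 counts. The 4 repeat libraries enter only the alternatives and checks named.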

Additional observations from a re-analysis of the deposited data

Results flagged for a closer look

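Of 120 groups of 4 to 7 mice, 1 for each gene, diagnosis and time point tested, 9 held a mouse far from the others by Dixon's test, where chance gives about 1 in 20. In young mice these were Sdf2l1 at ZT0 in CR6RL (52.5 CPM), Pdia4 at ZT12 in ZT120 (74.8 CPM), and at ZT20 in ZT20LU both Dnajb11 (96.2 CPM) and Atf6 (81 CPM). In nephritic mice they were Hsp90b1 (575 CPM) and Dnajb11 (102 CPM) at ZT4 in RX11LU and Dnajb11 at ZT8 in RX12RL (85.9 CPM). In remission mice they were Dnajb9 (40.9 CPM) and Atf6 (58.7 CPM) at ZT0 in s8. The Sdf2l1 value of CR6RL goes with the highest Hspa5 of all mice, 1500 CPM, in the same library.

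The daily course differed between nephritic and young mice by the edgeR test of the group by time terms for Hspa5 (adjusted p = 0.0252), Hsp90b1 (0.00793), Sdf2l1 (0.000754), Dnajb11 (0.0112), Pdia4 (0.0177), Xbp1 (0.0273) and Atf4 (0.0372). Over the 57 fits that each left out a mouse, Xbp1 passed this test in 44 and Atf4 in 27.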

How the results depend on the processing

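Of the alternatives run for single members, 842 kept direction and side of the threshold, 54 lost and 18 gained a call, 24 without a call moved and 2 reversed. Both reversals were of Dnajb9 in remission against nephritic mice, at 0.13 with the run covariate and 0.03 with it and without RX11RU. Of the pathway genes 173 alternatives kept the call and 2 lost it. The count of members varying over the day was 4 in young mice without the set covariate and 0 in nephritic mice with a cosine. A different course was called for 3 members (796 of all genes) with repeat libraries, 0 (121 of all genes) with a cosine and 4 to 7 with 1 mouse left out. Remission against nephritic mice gave 0 with the run covariate, 0 with it and without RX11RU, and 2 to 3 with 1 remission mouse left out, fewest without s12. Remission against young mice gave 2 and 0 under those run covariates. Over all genes 1701 and 1197 then passed against nephritic mice and 3026 and 3020 against young mice. At ZT0 the count was 9 in Set 2 alone and 2 to 7 with 1 mouse left out. At ZT16 it was 1 by RLE, by DESeq2 and in Set 2 alone, and at ZT20 2 in Set 2 alone. Relations with marker sums passed in 0 cases without the 2 farthest mice, in Set 2 alone, without Derl3 and Txndc5, and without RX11RU. The causes were not tested. Leaving out mice at single time points, the sum without Derl3 and Txndc5 and every value without RX11RU in the remission comparisons, relations, correlations and pathway lists were chosen after seeing the data. Members held at least 195 counts in every mouse, and ZT4, ZT8, ZT16 and ZT20 hold 3 or 4 mice a group. No paired analysis was possible because the replicate numbers of the groups mark different mice.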
